A study of Mus musculus with 41 samples.

Results

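Mast cells of the mouse small intestine were picked from single-cell RNA sequencing of food-allergic and control mice by their transcripts. A cell was taken if it held at least 3 unique molecular identifiers (UMIs, each 1 captured transcript) of Cpa3, at least 1 of Fcer1a, Ms4a2, Gata2 or Hdc, and none of Mcpt8, Cd79a, Cd3d, Cd3e or Trac. This gave 864 of 58067 cells, 695 in the lamina propria and 169 in Peyer's patches, of which 799 came from food allergy and 65 from controls. Of 1231 cells with at least 3 Cpa3 UMIs, 217 held Mcpt8, a basophil gene, 122 a T cell receptor complex gene, 61 Cd79a, and 13 none of the 4 accessory genes. Since these counts chose the cells, Cpa3 and the other genes of the rule are given as a description without a test. At the edge of the rule, 21 cells had exactly 3 Cpa3 UMIs and 24 cells that met every other condition had exactly 2. UMIs of Mcpt1 or Mcpt2 were present in 95.2% of the cells just inside and in 70.8% of those just outside, at a median of 1762 and 1011 UMIs per cell.

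All mice were female BALB/cJ animals of 10 weeks. The sample type was labelled wild type for the control samples and Food Allergy for the others. The food allergy groups had been exposed to ovalbumin and the control groups had not. The lamina propria, the connective tissue below the gut epithelium, gave 3 food allergy and 3 control libraries of a sort labelled nonTB and 1 library of each condition of a sort labelled IgDLow, terms the labels do not define. Peyer's patches, organised lymphoid tissue in that wall, gave 9 food allergy and 10 control libraries. The libraries came from 7 run dates, numbered here in order, with Peyer's patches on dates 1 to 5 and lamina propria on dates 6 and 7. Whether libraries of 1 date came from separate animals is not stated, so p-values measure the spread between libraries or dates, which may be technical.

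Mast cells are tissue-resident granulocytes that bind IgE through the receptor FcεRI and release histamine, proteases, lipid mediators and cytokines when antigen crosslinks it. In mice, mucosal mast cells carry the β-chymases Mcpt1 and Mcpt2, and connective tissue mast cells carry tryptases such as Tpsb2 and Tpsab1 with the chymases Mcpt4 and Cma1 and the carboxypeptidase Cpa3. Mast cells are known to expand in the gut mucosa in food allergy models and helminth infection.

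Genes outside the rule bore out the label. Kit, the stem cell factor receptor, had a UMI in 70.1% of the mast cells and 14.7% of all other cells. Tph1, which makes serotonin, was found in 92.8% against 1.06%, and Il1rl1, the IL-33 receptor, in 69.0% against 1.38%. Prg2, an eosinophil granule gene, was found in 0.116% of mast cells and 2.09% of other cells, and S100a8, a neutrophil gene, in 1.27% and 1.03%. Of genes shared with or known from basophils, Cd200r3 was found in 20.4% of mast cells and 0.904% of other cells, and Prss34 in 2.31% and 0.0734%. The median depth was 3412 UMIs per mast cell and 3034 per cell of the whole matrix. In 60 mast cells the barcode also occurred in another library, as in 4534 of all cells. Doublets were called for 36 of the 864 mast cells and for 1170 of all 58067 cells (2.01%).

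Upstream windows of 4 genes are shown, 3 chymases (Mcpt1, Mcpt4 and Cma1) called in the comparisons below and Cpa3, the gene the rule starts from: 120 bases before the gene start, from RefSeq on GRCm38.p6, with the GATA core GATAA or its reverse complement TTATC in capitals. The windows lie at chr14:56017844-56017963 on the plus strand for Mcpt1, chr14:56062311-56062430 on the minus strand for Mcpt4, chr14:55944676-55944795 on the minus strand for Cma1 and chr3:20242182-20242301 on the minus strand for Cpa3.
Mcpt1: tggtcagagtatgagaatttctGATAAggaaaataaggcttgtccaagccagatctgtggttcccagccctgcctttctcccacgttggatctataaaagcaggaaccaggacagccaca
Mcpt4: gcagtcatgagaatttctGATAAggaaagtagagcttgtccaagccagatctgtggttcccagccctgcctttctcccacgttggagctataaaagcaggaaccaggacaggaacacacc
Cma1: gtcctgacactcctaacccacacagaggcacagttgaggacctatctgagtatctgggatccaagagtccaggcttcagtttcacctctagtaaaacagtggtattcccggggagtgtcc
Cpa3: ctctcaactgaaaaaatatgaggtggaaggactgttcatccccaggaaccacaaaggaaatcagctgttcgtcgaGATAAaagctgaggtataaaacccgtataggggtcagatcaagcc
The Mcpt1 and Mcpt4 windows were identical at 86.3% of 124 aligned positions, and their match began 98 and 102 bases before the start. The Cpa3 match began 45 bases before the start, and the Cma1 window held none. Of 32851 windows of this length, 10.5% held a match on either strand. Windows were found for 11 of the 17 proteases listed, Tpsb2 not among them. Of those not shown, Mcpt9, Ctsg, Gzmb, Gzma and Mcpt8 held no match. Prss34 held a match, and Tpsg1 held a match in only a part of its windows.

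The first question was whether mast cells were more frequent in food allergy. In the lamina propria nonTB libraries they made up 7.82%, 6.41% and 5.52% of cells in food allergy (219, 181 and 131 cells), against 0.263%, 0.159% and 0.568% in controls (6, 4 and 14 cells). Every food allergy library lay above every control library. Food allergy averaged 6.58% ± 1.16 and controls averaged 0.33% ± 0.212 (SD, n = 3 each), a difference of 6.26 percentage points. The exact permutation test within run date gave a two-sided p of 0.167, the smallest its 12 arrangements allow. Leaving out the third control library lowered the control mean to 0.211%. Mast cells of these libraries had a median of 2657, 3303 and 3495 UMIs in food allergy, against 1874, 1492 and 2299 in the control libraries. After every cell was thinned to 1000 UMIs and shallower cells were left out, food allergy averaged 7.90% ± 1.49 and controls averaged 0.309% ± 0.176. The single IgDLow libraries held 3.75% in food allergy (128 cells, exact binomial interval 3.14 to 4.45%) and 0.462% in the control (12 cells, 0.239 to 0.805%), with no replicate check. Intervals here and below cover counting error only.

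In Peyer's patches the share differed by date. On date 5 it was 2.23% in food allergy and 0.269% in controls, and on date 4 it was 0.684% and 0.554%, with overlapping exact binomial intervals. On dates 1 to 3 food allergy libraries held 0, 5 and 1 mast cells and control libraries 2, 0 and 0. Over dates, food allergy averaged 0.626% ± 0.938 and controls averaged 0.169% ± 0.243 (SD, n = 5 dates each), with an exact permutation p of 0.125, two-sided. Without date 5 food allergy averaged 0.225% and controls averaged 0.144%, and without date 4 they averaged 0.611% and 0.0732%.

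**Figure D1:**
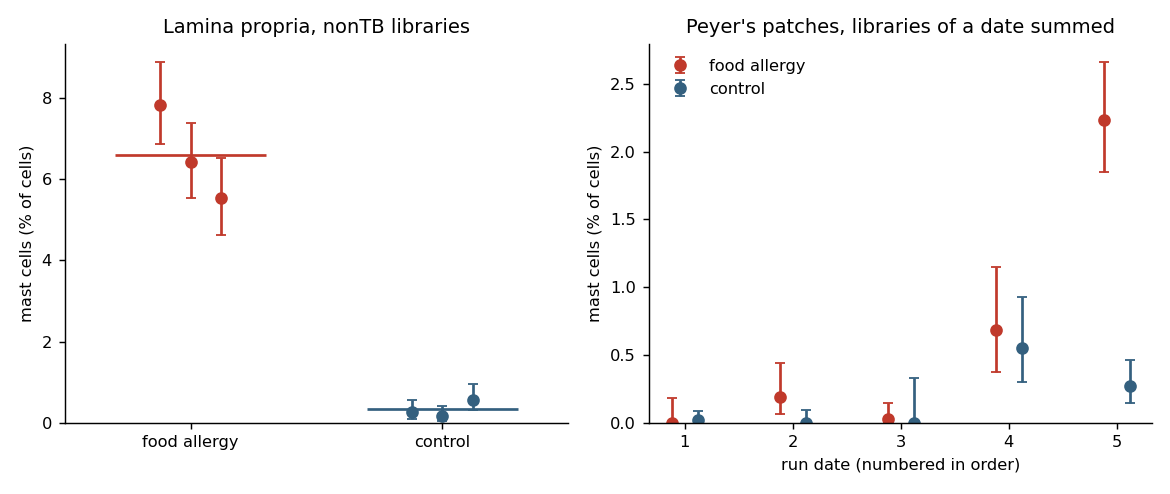
Share of mast cells in % of all cells, for each lamina propria nonTB library (left, horizontal lines are means) and for each Peyer's patch run date (right). Error bars are exact 95% binomial intervals. In the lamina propria the food allergy libraries sit between 5.52% and 7.82%, above all control libraries, and in Peyer's patches the gap is widest on date 5.

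Protease content split the mast cells into 4 classes, by at least 3 UMIs of the mucosal chymases Mcpt1 and Mcpt2 and at least 3 UMIs of the tryptases Tpsb2 and Tpsab1. Of 531 food allergy cells in the nonTB lamina propria, 405 carried mucosal chymase only, 92 carried both, 13 tryptase only and 21 neither. Of 24 control cells, 7 carried mucosal chymase only and 17 neither. Of 140 food allergy cells in Peyer's patches, 130 carried mucosal chymase only, 9 both and 1 neither, and of 29 control cells 19 carried mucosal chymase only and 10 neither. Median depth was 6148 and 4087 UMIs in these Peyer's patch cells, against 3061 and 2062 in the nonTB lamina propria. The Peyer's patch classes were not repeated at equal depth. The IgDLow food allergy library had 89 cells with mucosal chymase only, 19 with both, 11 with tryptase only and 9 with neither, and its control had 6 with mucosal chymase only and 6 with neither.

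Tryptase at 3 or more UMIs was found in food allergy cells and in none of the 65 control cells. In Peyer's patches it was found in 6.43% of 140 food allergy cells and 0 of 29 control cells, with an exact binomial limit of 11.9%. In the IgDLow libraries it was found in 23.4% and in 0 of 12 cells, with a limit of 26.5%. Both limits lie above the food allergy share, so these control cells are too few to show a difference. The share in the lamina propria nonTB libraries was 18.7%, 14.4% and 29.0% in food allergy and 0% in each control library, where 0 of 24 pooled cells allow a share of up to 12.5% by 3 counts of the total, or 14.2% by the exact binomial limit. Mucosal chymase was found in 94.5%, 96.1% and 88.5% of food allergy mast cells, against 50.0%, 0% and 28.6% of control mast cells. Both differences gave an exact permutation p of 0.167, two-sided, the smallest possible. The mean tryptase share was 20.7% ± 7.52 against 0%, and the mean mucosal share 93.1% ± 3.99 against 26.2% ± 25.1 (SD, n = 3 each). With cells thinned to 1000 UMIs the tryptase share averaged 16.0% ± 3.88 in food allergy and 0% in controls, and the mucosal share 90.4% ± 6.69 and 21.4% ± 18.5. At a cut of 1 UMI the tryptase means were 26.1% in food allergy and 10.7% in controls, with an exact permutation p of 0.5.

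Plasma cells, which lack these proteases, gave an estimate of the level of free RNA. They were taken at 20 or more Jchain UMIs and 1 or more Xbp1 UMIs, without cells of 3 or more Cpa3 UMIs. Leaving out those cells may make the estimate too low, since they can carry more mast cell RNA. At least 3 tryptase UMIs were found in 0 of 1781 plasma cells of the food allergy lamina propria, which allows up to 0.168%. At least 3 mucosal chymase UMIs were found in 1.80% of these plasma cells in food allergy and 0% in controls, and at least 1 in 34.0% and 1.81%, at a median of 10870 and 10350 UMIs per plasma cell. In Peyer's patches at least 3 mucosal chymase UMIs were found in 11.2% of 242 plasma cells in food allergy and 0.427% of 234 in controls, at a median of 16930 and 14670 UMIs. The free RNA of mucosal chymase differed between the conditions in the same direction as the mast cells, and its part in their difference was not tested. Mast cells had a pooled mucosal chymase share of 93.6% in food allergy and 29.2% in controls in the lamina propria and of 99.3% and 65.5% in Peyer's patches.

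Cells with neither protease pair still met the rule, so they held Cpa3 by choice. They were pooled over tissues and sorts, and 1 of the 31 food allergy cells and 10 of the 33 control cells came from Peyer's patches. The shares of this class by condition therefore mix tissue with condition. Of genes outside the rule, Kit had a UMI in 64.5% of the 31 such cells of food allergy and in 60.6% of the 33 of controls. Cma1, the α-chymase, had a UMI in 90.3% of the food allergy cells of this class and 33.3% of the control cells, and in 5.56% and 0.249% of lamina propria plasma cells. Cd34 was present in 41.9% and 54.5%, at a median of 2406 and 2338 UMIs per cell.

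**Figure D2:**
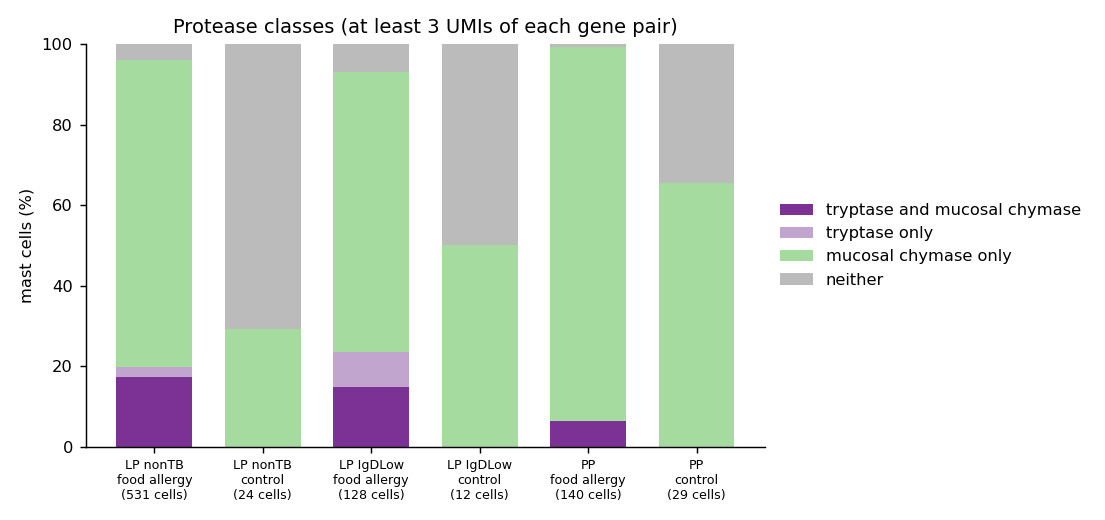
Protease classes of mast cells in % of the mast cells of each group, at 3 or more UMIs of Mcpt1 with Mcpt2 (mucosal chymase) and of Tpsb2 with Tpsab1 (tryptase), with the pooled number of cells under each bar. Tryptase classes appear in the food allergy bars, and the class with neither pair is larger in each control bar.

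Expression in food allergy was compared with controls on UMI sums of mast cells per tissue and run date, using the 4 dates with at least 10 mast cells in both conditions, a comparison chosen after seeing the data. Levels are CPM, the UMIs of a gene scaled to a common total of mast cell UMIs, and changes are log2 fold changes from edgeR's quasi-likelihood fit, which held the run date as a term. Of 956 genes tested, 14 rose (1.46%) and 2 fell (0.209%) at an adjusted p under 0.05, or 1.67% of all tested. Of the 8 proteases tested, 5 rose and none fell. The median log2 change of the 8 was 1.60, against -0.01 over all genes.

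Tpsb2, a tryptase, stood at 2020 and 1880 CPM in the lamina propria and 511 and 388 in Peyer's patches in food allergy, against levels of 39.6, 64.3, 14.2 and 0 in the matching controls, which held 4 Tpsb2 UMIs in all. The groups did not overlap. Tpsb2 rose by 5.37 on the log2 scale (SE 0.39, adjusted p = 0.000247), and the pooled ratio was 62.5 with a 95% counting interval of 24.4 to 229. Mcpt4, a chymase of connective tissue mast cells, stood at 6190, 4870, 3800 and 4160 in food allergy, against 792, 1060, 1190 and 1030 in controls. It rose by 2.21 (SE 0.21, adjusted p = 0.00116), with no overlap in either tissue. Mcpt4 also had a UMI in 93.1% of the 624 food allergy cells with mucosal chymase only, pooled over tissues and sorts.

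The mucosal chymases rose within each date, although the groups overlapped across tissues. Mcpt1 stood at 31500, 30700, 66300 and 89800 in food allergy, against 14500, 5180, 20000 and 40500 in controls, a log2 change of 1.66 (SE 0.26, adjusted p = 0.018). Mcpt2 changed by 1.53 (SE 0.28, adjusted p = 0.0309). Without the run date term Mcpt1 had an adjusted p of 0.327 and Mcpt2 of 0.346. Mcpt1 and Mcpt2 are close relatives, and how reads shared between them were counted is not given in the sources used here. Over the last 300 bases of the longest transcripts they were 59.3% identical, with a longest shared run of 20 bases. Cma1 stood at 3080, 4130, 244 and 494 in food allergy, against 831, 739, 156 and 43.9 in controls, and rose by 2.05 (SE 0.35, adjusted p = 0.023); without the run date term its adjusted p was 0.348.

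The other 3 tested proteases did not pass the test. Mcpt9, another β-chymase, changed by 0.49 (SE 0.29, adjusted p = 0.471), Cma2 by 1.10 (SE 0.99, adjusted p = 0.665) and Gzmb, granzyme B, by 0.32 (SE 0.54, adjusted p = 0.853).

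Single genes of 2 mediator lists were called. Tph1 stood at 2500, 2360, 1740 and 1960 in food allergy, against 554, 1090, 668 and 966 in controls, and rose by 1.42 (SE 0.21, adjusted p = 0.0144), the 1 called of 3 tested genes of amine synthesis and storage. Tnf stood at 237, 180, 622 and 361 in food allergy, against 79.2, 64.3, 14.2 and 65.9 in controls, which held 8 Tnf UMIs in all. Tnf rose by 2.98 (SE 0.55, adjusted p = 0.0327), the 1 called of 5 cytokines tested. Il13, a type 2 cytokine, changed by 2.42 (SE 0.68, adjusted p = 0.142) and Il4 by 0.89 (SE 0.75, adjusted p = 0.638). None of 6 FcεRI signalling genes, 3 eicosanoid genes, 4 chemokines, 5 growth factor and alarmin receptors or 20 immediate early genes passed. Of all 956 genes tested 1.67% passed, so lists this small would hold few calls, and their absence does not show a lack of change.

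Other genes that rose were Gm26825, an unnamed locus, Phlda1, Ddit4, a stress-induced inhibitor of mTOR signalling, Decr1, a mitochondrial enzyme of fatty acid oxidation, Oaf, Gpr171, a G protein-coupled receptor, and Furin, a proprotein convertase. Phlda1 stood at 805, 426, 311 and 226 in food allergy, against 79.2, 32.2, 56.9 and 22.0 in controls, a log2 change of 3.10 (SE 0.36, adjusted p = 0.00368). The control sums held 8 Phlda1 UMIs in all, and 7, 7, 5 and 9 of Gm26825, Decr1, Ddit4 and Oaf. Malat1, a nuclear long noncoding RNA often read as a sign of RNA quality, fell to 16000, 21300, 21600 and 15200 in food allergy, against 35200, 40200, 41600 and 29600 in controls, a log2 change of -0.96 (SE 0.16, adjusted p = 0.0225). Its part in the other changes was not tested. The 3 basophil markers outside the rule (Prss34, Cd200r3 and Itga2b) summed to 535, 774, 266 and 414 CPM in food allergy, against 396, 418, 56.9 and 242 in controls, and the part of basophil RNA was not tested; Mcpt8, a defining basophil gene, is 0 by the rule. Emd, encoding emerin of the nuclear envelope, fell by 1.77 (SE 0.34, adjusted p = 0.0405).

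Tpsb2 and Mcpt4 kept an adjusted p under 0.05 in every alternative that tested them, including each date left out. Without date 5, the adjusted p was 0.0724 for Mcpt1, 0.187 for Mcpt2, 0.116 for Cma1, 0.0724 for Tph1 and 0.203 for Tnf. Without date 6 it was 0.211 for Cma1, 0.0775 for Tph1 and 0.106 for Tnf, and without date 7 it was 0.082 for Cma1. In all 5 genes were called without date 5, 5 without date 6 and 22 without date 7. Of the called genes followed through these fits, 11 did not pass and 4 did without date 5. Without date 6, 10 did not pass and 5 did, and without date 7, 4 did not pass and 11 did. For dates 5 and 6 the genes that did not pass include some not named here. Malat1 did not pass without date 4, 5 or 6 (adjusted p = 0.191, 0.075 and 0.101), and Ddit4, Oaf and Emd did not without date 5, 6 or 7. The rule genes chose the cells and are given as a description only. Cpa3 stood at 12300, 9700, 4970 and 6230 against 5940, 5110, 2630 and 4630, and Hdc, which makes histamine, at 2870, 1570, 2030 and 553 against 277, 643, 256 and 242. The difference of the food allergy change between the tissues was tested in the same sums, with 2 residual degrees of freedom. For it edgeR called 0 of 956 genes and DESeq2 called 2. With edgeR 46 genes had an unadjusted p under 0.05, about as many as that threshold gives without any change.

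**Figure D3:**
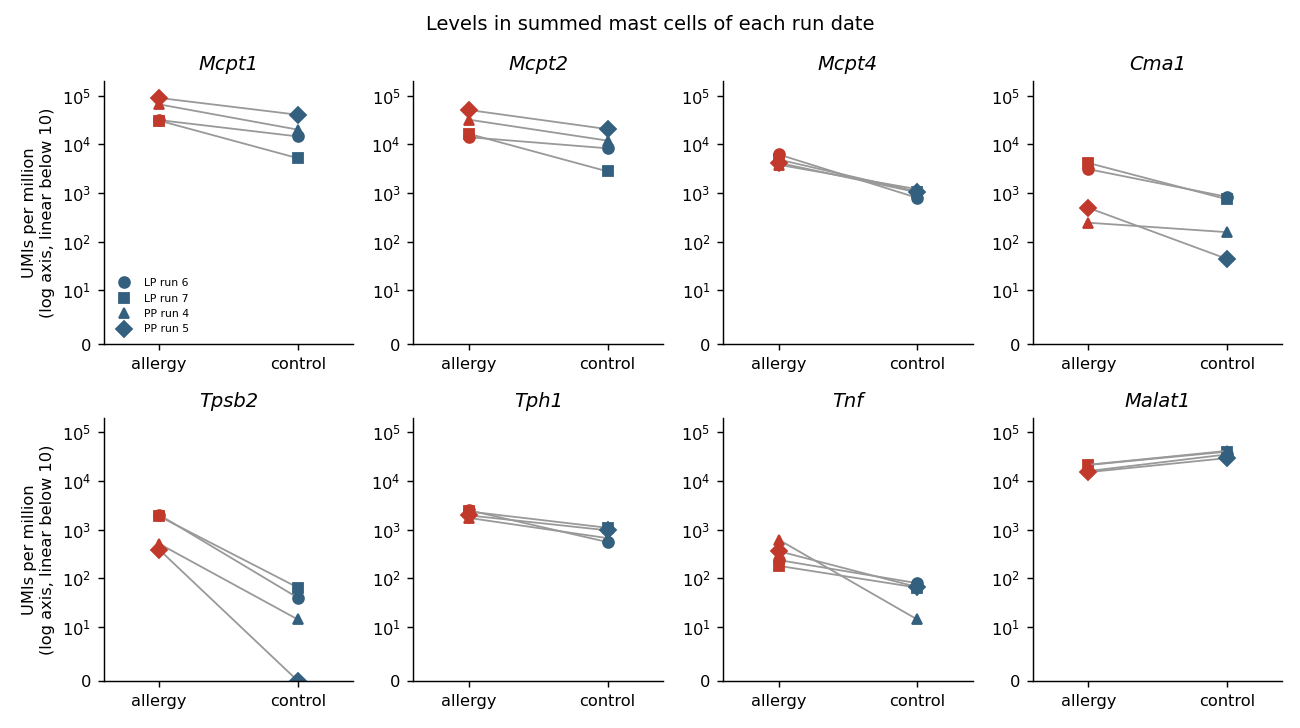
CPM (log axis, linear below 10) of 8 genes in the sums of 4 run dates, food allergy on the left and control on the right of each panel, with a line joining the sums of 1 date. Tpsb2 and Mcpt4 are higher in food allergy on every date without overlap, and Malat1 is lower.

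Within the lamina propria nonTB libraries alone, Mcpt1 stood at 31300, 31700 and 30700 CPM in food allergy, against 20300, 0 and 5180 in controls of 6, 4 and 14 mast cells. Mcpt4 stood at 5860, 6530 and 4870 in food allergy, against 1110, 0 and 1060 in controls. Neither gene overlapped between the conditions. Lgals1, galectin 1, stood at 864, 1090 and 1040 in food allergy, against 333, 414 and 96.5 in controls, the last on 3 UMIs. Only the third control library held at least 10 mast cells, so the fit had 1 residual degree of freedom, and with the run date as a term its condition estimate compared 1 food allergy with 1 control library, those of date 7. Its p-values therefore compare these libraries and not the conditions. Here 117 genes were called higher (1.93%) and 10 lower (0.165%) of 6071 tested, or 2.09%, with a median log2 change over all genes of 0.51. Scaled by total UMIs that median was -0.05 and the calls were 19 higher and 27 lower. Without a filter on low counts edgeR called 0 of 12398 genes, with 548 at an unadjusted p under 0.05, and DESeq2 called 25 of the 6071. Of 13 proteases tested, 5 were called, all higher (Mcpt1, Mcpt2, Mcpt4, Cma1 and Tpsb2). Of 9 chemokines tested, 3 were called lower (Ccl1, Ccl3 and Ccl4) and none higher, while the median log2 change of the 9 was 4.08. Ccl4 stood at 5850, 6810 and 2190 in food allergy, against 5940, 5380 and 7430 in controls, so that the groups overlapped, and the direction of each of these chemokines turned in at least 1 fit of all 6 libraries.

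The next comparison set lamina propria against Peyer's patch mast cells, from 4 sums each, with condition in the model. Tissue cannot be told apart from run date and sort here, and the 4 sums of each tissue came from only 2 run dates. The model held no term for the run date, so its p-values treat sums of 1 date as separate. Of 3039 genes, 40 were higher (1.32%) and 67 lower (2.2%) in the lamina propria, 3.52% in all, and 77 and 38 when scaled by total UMIs. Without the date 5 food allergy sum of Peyer's patches 11 genes were called of 1211 tested, and without the first and second food allergy library of the lamina propria 20 and 21. Of 35 called genes followed through these fits, 24 could be tested without that date 5 sum, of which 9 passed (Cma1, Cma2, Mcpt1, Mcpt2, Mcpt9, Ifitm1, Jchain, Igkc and Igha) and 15 did not. Of 9 proteases tested, 2 were higher and 5 lower. The higher ones belong to the connective tissue set and the lower ones include the mucosal chymases.

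Cma1 stood at 2610, 3550 and 4130 in the 3 food allergy libraries and 739 in the control library of the lamina propria, against 244 and 494 in food allergy sums and 156 and 43.9 in control sums of Peyer's patches. It was higher in the lamina propria by 2.85 (SE 0.35, adjusted p = 0.000203), with no overlap. Tpsb2 was higher by 1.99 (SE 0.30, adjusted p = 0.00132), with overlap between the tissues, and its adjusted p was 0.0574 without the date 5 food allergy sum.

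Mcpt9 stood at 325, 261 and 371 in the food allergy libraries and 354 in the control library of the lamina propria, against 2120 and 1970 in food allergy sums and 1690 and 1740 in control sums of Peyer's patches. It was lower in the lamina propria by 2.79 on the log2 scale (log2 change -2.79, SE 0.24, adjusted p = 5.7e-06), and the 4 sums of each tissue did not overlap with those of the other. Mcpt1 had a log2 change of -1.93 (SE 0.27, adjusted p = 0.000704), Mcpt2 of -2.04 (SE 0.26, adjusted p = 0.000368), Cma2 of -3.09 (SE 0.42, adjusted p = 0.000584) and Gzma, granzyme A, of -1.92 (SE 0.41, adjusted p = 0.0155). For Mcpt1, Mcpt2, Cma2 and Gzma the sums of the tissues overlapped. Gzma did not pass with DESeq2 (adjusted p = 0.0812), nor without food allergy library 2 or 3 of the lamina propria (0.17 and 0.0668). Mcpt1 and Mcpt2 together made up 4.57%, 4.53% and 4.71% of the UMIs of food allergy mast cells in the lamina propria, and 9.84% and 14.1% in Peyer's patches. In controls they made up 0.794% in the lamina propria library of the fit, and 3.19% and 6.1% in the Peyer's patch sums. The first and second lamina propria control libraries, too small for the fit, had 3.19% and 0%. Mcpt4 did not pass, with a change of 0.13 (SE 0.21, adjusted p = 0.816).

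Adhesion genes were lower in the lamina propria in 3 of 10 tested, against 2.2% of all genes tested. Itgae, the αE integrin that binds epithelial E-cadherin, averaged 53.2 ± 21.8 in the lamina propria and 234 ± 81.8 in Peyer's patches (SD, n = 4 each), a log2 change of -2.35 (SE 0.28, adjusted p = 0.000189), and its adjusted p was 0.0725 without the date 5 food allergy sum. Itgax changed by -1.80 (adjusted p = 0.0056) and Cd63, a granule membrane tetraspanin, by -0.98 (adjusted p = 0.018). Ramp1, a subunit of the CGRP receptor, was lower by a log2 change of -2.14 (SE 0.41, adjusted p = 0.00808), on 26 UMIs in the lamina propria and 58 in Peyer's patches. Adora3, an adenosine receptor that augments mast cell degranulation in mice, was higher by 1.78 (SE 0.37, adjusted p = 0.0136), and its adjusted p was 0.297 without that sum, as it was 0.145 for Cd63. Ifitm1 averaged 3530 ± 540 in the lamina propria and 7860 ± 1740 in Peyer's patches, a log2 change of -1.39 (SE 0.21, adjusted p = 0.00132).

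The other large rises were Smpx (2.70), Cenpa (2.75), Stmn1 (2.50), Alyref (2.29), Chst1 (2.23) and Klf10 (2.17), and the other large falls Hey1 (-2.76), Clec2d (-2.56), Nr4a2 (-2.52) and Ffar2 (-2.48), all as log2 changes. Without the date 5 food allergy sum Smpx, Stmn1, Alyref, Klf10 and Nr4a2 did not pass, and Cenpa, Chst1, Hey1, Clec2d and Ffar2 were not tested. Stmn1 and Cenpa are genes of dividing cells, and both overlapped between the tissues, Cenpa on 9 UMIs in Peyer's patches. Of 8 genes of the cell cycle list tested, which does not hold Cenpa, only Stmn1 was called. Nr4a2 is an immediate early gene, of which 3 of 25 tested were lower, against 2.2% of all genes tested. AY036118, Gm26917 and Gm42418 were also called lower (-4.50, -3.83 and -3.41), but they differed between the run dates within Peyer's patches. AY036118 stood at 1620 and 2350 CPM in the food allergy and control sums of date 4 and at 56.8 and 43.9 in those of date 5, against 17.3 to 91.1 in the lamina propria. Without the date 4 food allergy sum its adjusted p was 0.395, and that of Gm26917 and Gm42418 was 0.455 and 0.459.

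The genes with the largest rise included immunoglobulin transcripts: Jchain, Igkc and Igha were higher in the lamina propria by 3.70, 3.38 and 2.90 on the log2 scale. All 10 plasma cell markers summed to 6100 to 7160 CPM in the 4 lamina propria sums and 439 to 825 in those of Peyer's patches. Igkc had a UMI in 94.3% of mast cells and 80.8% of other cells. The part of plasma cell RNA in the other tissue differences was not tested.

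**Figure D4:**
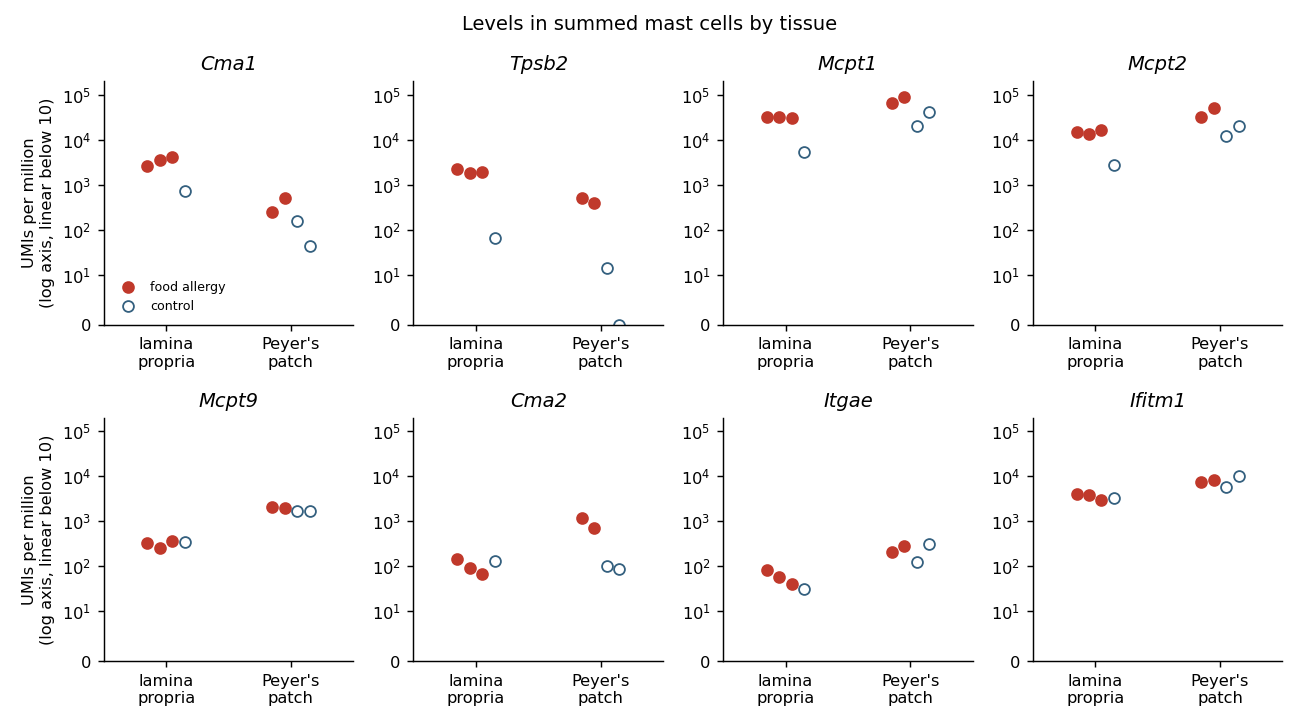
CPM (log axis, linear below 10) of 8 genes in 4 lamina propria sums and 4 Peyer's patch sums, with filled points for food allergy and open points for control. Cma1 is higher in every lamina propria sum, and Mcpt9 and Itgae are higher in every Peyer's patch sum.

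The last comparison split food allergy lamina propria mast cells by tryptase, with 41, 26 and 38 cells of at least 3 UMIs of Tpsb2 with Tpsab1 against 168, 145 and 85 cells of 0 in the 3 nonTB libraries, and the library as a block. Tpsb2 and Tpsab1 made the split and were not tested. Of 2754 other genes, 25 rose (0.908%) and 13 fell (0.472%) in the tryptase-positive cells, 1.38% in all. Of 10 proteases, 4 rose and 4 fell. The tryptase-positive cells were shallower, at a median of 2300, 2477 and 2702 UMIs per cell against 2675, 3478 and 3842, and with cells thinned to 1000 UMIs before the split 15 genes rose and 14 fell. Of 10 genes read as signs of RNA quality, only Malat1 was called, higher in the tryptase-positive cells. The part of RNA quality in the other changes was not tested. Of 3 basophil markers tested, Prss34 and Cd200r3 rose, Itga2b did not pass, and Mcpt8 is 0 by the rule; the part of basophil RNA was not tested.

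Cma1 stood at 6530, 11800 and 8260 CPM in tryptase-positive cells and at 1520, 2430 and 2660 CPM in tryptase-negative cells, a log2 change of 1.98 (SE 0.11, adjusted p = 1e-11). Mcpt4 stood at 8280, 9690 and 6140 against 5350, 6010 and 4410, a change of 0.57 (SE 0.08, adjusted p = 0.000137). Tpsg1, a membrane-anchored tryptase, had 33 UMIs in tryptase-positive cells and none in tryptase-negative cells. The ratio was 49.1 against a floor of 3 counts over the group, and the lower 95% counting limit of the ratio was 37.7. Prss34, a tryptase-like protease also known from basophils, had 238 UMIs in tryptase-positive cells and 2 in tryptase-negative cells, a pooled ratio of 531 with a 95% counting interval of 145 to 4410, and over all tissues it was found in 13 of 120 cells with both protease pairs and 2 of 24 with tryptase only.

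Mrgprb2, the receptor through which connective tissue mast cells of mice respond to cationic drugs and peptides, stood at 96.1, 131 and 49.9 in tryptase-positive cells and at 8.16, 3.83 and 0 in tryptase-negative cells. It rested on 26 and 6 UMIs and rose by 4.30 (SE 0.59, adjusted p = 7.67e-05). Cd200r3, an activating receptor of mast cells and basophils, rose by 1.25 (SE 0.28, adjusted p = 0.0219), but did not pass with DESeq2 (adjusted p = 0.743).

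The mucosal chymases fell. The median of Mcpt1 with Mcpt2 was 39, 44.5 and 14.5 UMIs per tryptase-positive cell, against 84, 119 and 125 per tryptase-negative cell, and at least 3 were present in 92.7%, 92.3% and 78.9% against 95.2%, 97.2% and 95.3% of cells. In the UMI sums, Mcpt1 stood at 19100, 14300 and 22100 in tryptase-positive cells and at 34900, 34700 and 33300 in tryptase-negative cells, a log2 change of -0.93 (SE 0.09, adjusted p = 2.48e-07), and Mcpt2 changed by -0.79 (SE 0.09, adjusted p = 3.19e-06). Mcpt9 stood at 0, 14.6 and 166 against 420, 312 and 467, a change of -2.68 (SE 0.38, adjusted p = 0.000137), and did not pass with DESeq2 (adjusted p = 0.726). Gzma had 1 UMI in tryptase-positive cells and 184 in tryptase-negative cells, a pooled ratio of 0.0242 with a 95% counting interval of 0.00061 to 0.137. Other genes higher in tryptase-positive cells were Speer4e (3.83), Pmp22 (2.55), Vps37b (1.33), Chst1 (1.16) and Socs2 (1.11, a cytokine signalling inhibitor), and others lower were Pi16 (-2.55), H2-Eb1 (-1.93, an MHC class II chain), Ly6e (-1.19) and Stk19 (-1.13), all as log2 changes; with DESeq2, Vps37b, Chst1, Socs2, Pi16, H2-Eb1, Stk19 and Itgae did not pass. Without the first library 17 genes were called, and Mcpt4 (adjusted p = 0.051), Gzma (0.051), Cd200r3, Vps37b, Chst1, Socs2, Pi16, Stk19 and Itgae did not pass. With doublet calls removed 19 genes were called, and Cd200r3, Vps37b, Chst1, Pi16, Stk19 and Itgae did not pass. Ifitm1 fell by 0.91 on the log2 scale (log2 change -0.91, SE 0.12, adjusted p = 7.67e-05), and Itgae had a change of -2.50 (SE 0.59, adjusted p = 0.0316) on 4 UMIs against 104.

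**Figure D5:**
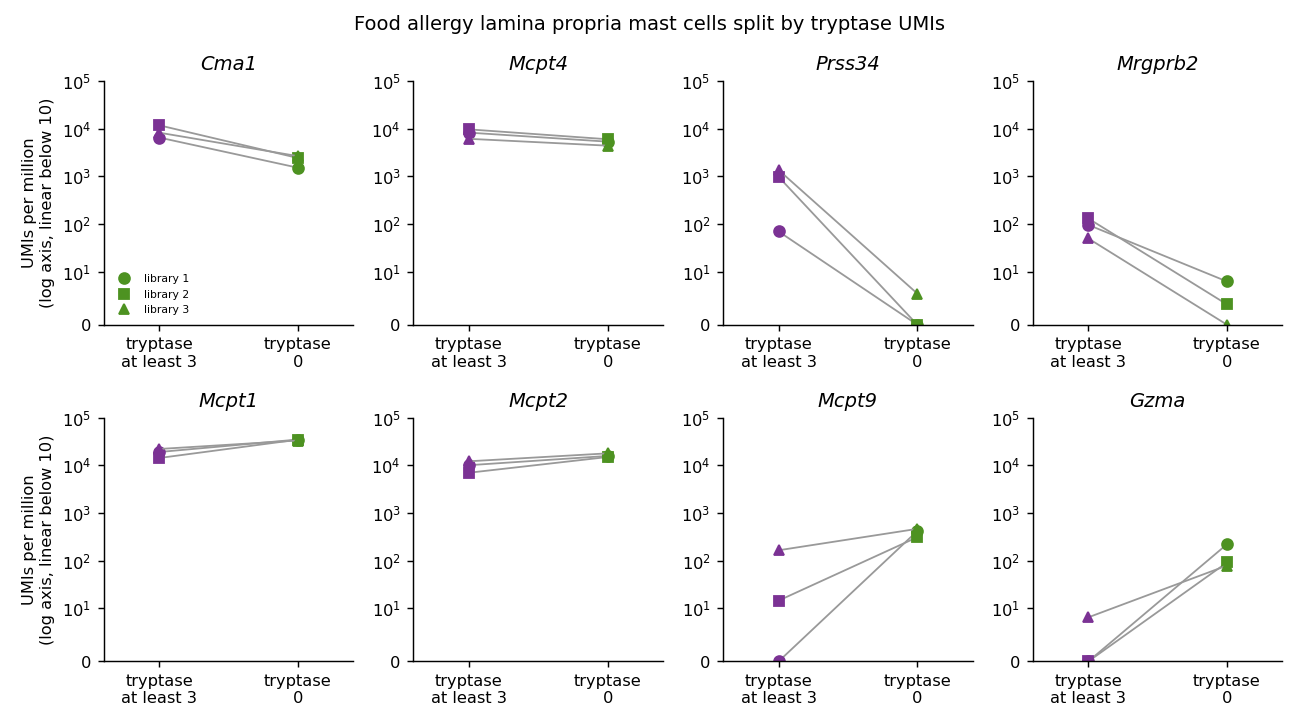
CPM (log axis, linear below 10) of 8 genes in food allergy lamina propria mast cells with at least 3 tryptase UMIs (left of each panel) and with 0 (right), with a line for each of 3 libraries. Cma1, Mcpt4, Prss34 and Mrgprb2 are higher in the tryptase-positive cells of every library, and Mcpt1, Mcpt2, Mcpt9 and Gzma are lower.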

How the data were processed

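Droplet single-cell RNA sequencing gave raw UMI counts per gene and cell, which the authors deposited as 1 matrix of 27 libraries with 58067 cells, with cell names that carry the sample titles. The labels name 28 single-cell samples; food allergy Peyer's patch library 1 was not analysed here. Per the submitters' processing notes the tools included Cell Ranger and bcl2fastq, with genome build mm10; counting settings and versions were not stated. The least deep cell had 501 UMIs. The bulk libraries of the series were not used. Members and gene lists were chosen with earlier results of these data known. UMIs were summed over mast cells per library, or per run date and condition in Peyer's patches, with at least 10 cells per sum, and tested with edgeR 4.0.16 in R 4.3.3 (filterByExpr, TMM scaling, quasi-likelihood test, Benjamini-Hochberg over all genes tested, threshold 0.05); the genes of the cell rule were left out. DESeq2 1.42.0 was an alternative. Shares were compared by exact permutation of condition within run date, two-sided. Levels are CPM on total UMIs, without TMM factors. The sums described by library or run date held 634 to 1263679 UMIs, so low genes are imprecise in the small ones. Named genes were all proteases, up to 4 called genes of each list, and the largest changes among called genes (12 each way by condition, with the same direction on both lamina propria dates, and 10 each way in other comparisons), and the text gives a part of these. In the lamina propria fit, with 1 residual degree of freedom, the genes given beyond the proteases (Lgals1, Ccl1, Ccl3, Ccl4) were chosen after their values were seen. Doublets were called from simulated pairs and kept except in an alternative. The fits were tested on simulated data.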

Additional observations from a re-analysis of the deposited data

Results flagged for a closer look

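Among 29 groups of 4 to 10 values checked for a value far from the rest, 2 were flagged, and chance flags some groups at this threshold. Cma2 in the 4 control sums was flagged by its lamina propria sum of date 6, at 554 CPM, which came from the first control library. Gzma in the 4 control sums was flagged by the Peyer's patch sum of date 4, at 56.9 CPM, or 4 UMIs.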

How the results depend on the processing

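The shares kept their direction in every alternative run, with an exact permutation p between 0.125 and 0.5. For the lamina propria condition fit (127 genes called) the count was 25 with DESeq2, 0 without a filter on low counts, 7 without the run date term, 253 and 251 at a Cpa3 minimum of 1 and 5 UMIs, 241 without doublet calls, 247 with cells of at least 1000 UMIs, 46 scaled by total UMIs and 78 with all 6 libraries. Leaving out 1 library was possible only with all 6, where counts ran between 0 and 122: 7, 1 and 0 without food allergy library 1, 2 and 3, and 46, 122 and 84 without control library 1, 2 and 3. With the replicate number as a block, again with all 6, 31 genes were called; libraries share only a number, and the deviations of same-numbered libraries correlated at -0.0168, 0.00917 and 0.0211 over 2152 genes. Both fits on all 6 libraries were chosen after seeing the data, because the blocked or reduced fit of the 4 larger libraries had no residual degrees of freedom.

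Ccl3 turned upward, to 0.254 with all 6 libraries, 0.461 with the replicate block, 0.122 and 1.46 without food allergy library 1 and 3, and 0.0656 and 2.21 without control library 1 and 3. Ccl4 turned to 0.171 without food allergy library 3 and to 0.0551 and 0.976 without control library 1 and 3, and Ccl1 to 9.39 without control library 3; the cause was not tested.

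For the 4 run dates (16 called) the count was 28 with DESeq2, 120 without a filter, 27 with the IgDLow cells, 40 at a Cpa3 minimum of 5, 6 with cells thinned to 1000 UMIs, and 5 to 55 with a date left out. The tissue difference of that change gave 2 with DESeq2 and 3 without a filter. For tissue (107 called) the count was 261 without a filter, 233 in food allergy sums only and 11 to 237 with a sum left out, lowest without the date 5 food allergy sum; control sums alone could not be fitted. For tryptase (38 called) it was 12 with DESeq2, 125 without a filter, 23 at a cut of 1 UMI, 19 without doublet calls, 64 with the IgDLow library and 17 to 37 with a library left out. The added alternatives were chosen after seeing the data. Control mast cells number 65, so low genes rest on few UMIs there.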
